A study of Arabidopsis thaliana with 6 samples.

Results

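GID1A, GID1B and GID1C encode the gibberellin receptors of Arabidopsis thaliana. They were taken as a family of 3 genes out of 13355 genes named on the array, by symbol through the platform's gene table. Each had 1 probe set, a group of short probes that together measure a transcript. The data came from stems of wild-type Col plants, grown for 3 weeks with 8 h of light and 16 h of dark and then kept at 16 h of light and 8 h of dark. In 1 group, 3 samples had been treated for 7 days with 10 mg/g of NPA (N-1-naphthylphthalamic acid), a blocker of polar auxin transport. The other group held 3 samples titled as mock controls, for which the labels name no agent. The pieces were 3 mm long, lay 2.5 cm above the stem base, and gave total RNA for 1 Affymetrix array each. The study aimed at genes behind auxin-induced cambium formation and activity, and the question here is how the receptor genes differed between NPA and mock.

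Gibberellin is a growth hormone that drives stem elongation and also promotes wood and fibre formation. A GID1 receptor that has bound gibberellin closes a lid over the hormone and then grips a DELLA protein, a repressor of growth genes. The F-box protein SLY1 tags the trapped DELLA protein for breakdown, which releases growth. The 3 receptor genes of Arabidopsis overlap in function, and plants without any of them are severe dwarfs that do not respond to gibberellin. The pathway is under feedback, in which gibberellin lowers transcripts of its receptors and synthesis enzymes and DELLA proteins raise them.

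Over all probe sets tested, Pearson's r between 2 arrays of the same group was 0.989 to 0.993 and between a mock and an NPA array 0.982 to 0.991. Mock 1 and NPA 3 stood apart from the other arrays on the second principal component, which held 21.9% of the variance. Array medians were 6.18 to 6.31 in mock and 6.32 to 6.39 in NPA on the log2 scale. Centring each array on its median therefore lowers every difference by 0.11. Without it, the median difference of NPA minus mock over all probe sets was 0.016. The labels name no separate plants behind the samples of a group, so p-values measure the spread between these samples only, which may be technical. The measured xylem and fibre markers lay above the array median. GUT2 (also called IRX10), a xylan synthesis gene, had a mean of 8.21 in mock, and HCT, a lignin precursor gene, one of 11.55. The root marker genes EXPA7 and PYK10 had mock means of 3.84 and 3.50, below the lower quartile of every array, which was 4.16 to 4.31.

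All 3 receptor genes had lower means in NPA than in mock, and 1 of them, GID1C, fell by limma's test across all probe sets. GID1C was 1.64-fold lower in NPA, at 61.1% of its mock level. GID1B had 70.6% and GID1A 79.6% of the mock level, and neither passed the threshold of an adjusted p under 0.05. The values of GID1B and GID1C did not overlap between the groups, while those of GID1A did. The receptors were chosen with earlier results of these data known, so shares over all genes are given only as background. By the same test, 0.232% of the 13355 genes were called lower. In 7.65% of the genes all NPA values lay below all mock values, and in 48.7% the mean was lower in NPA. Of all 22746 probe sets 683, or 3.00%, were called in either direction.

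**Figure D1:**
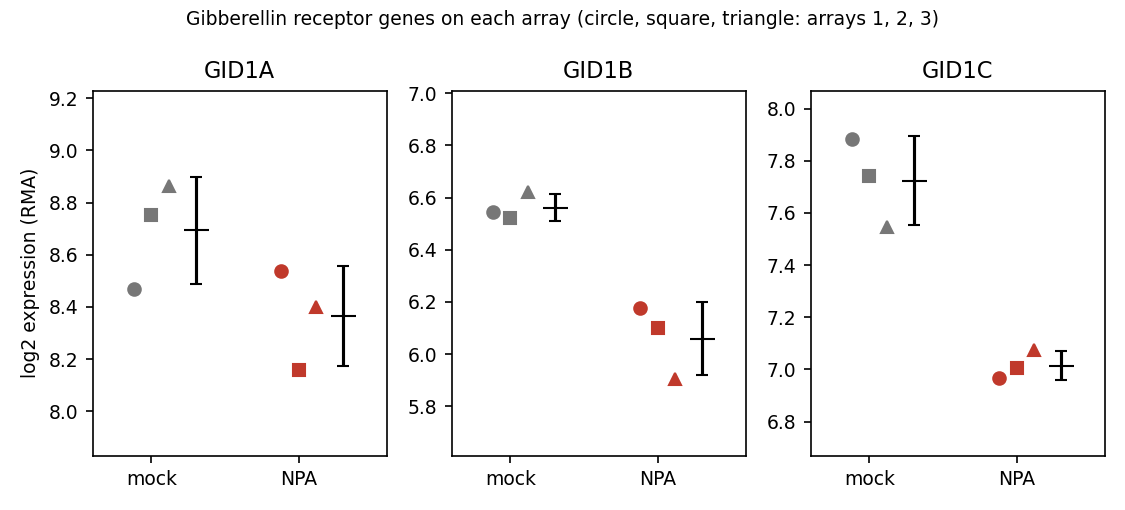
Log2 expression of GID1A, GID1B and GID1C on each array (y axis, the same span in each panel) by group (x axis), with circles, squares and triangles for arrays 1, 2 and 3 and bars for the mean and SD of 3 arrays. The NPA values of GID1B (5.90 to 6.18) and GID1C (6.97 to 7.07) lie below all their mock values, while GID1A overlaps.

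GID1C was measured at 7.88, 7.74 and 7.55 on mock arrays 1, 2 and 3, and at 6.97, 7.00 and 7.07 on NPA arrays 1, 2 and 3. The lowest mock array thus lay 0.47 above the highest NPA array, and the NPA arrays lay closer together than the mock arrays. The means were 7.72 ± 0.17 in mock and 7.01 ± 0.05 in NPA (SD, n = 3 each). NPA minus mock was -0.71 ± 0.11 on the log2 scale (SE, 95% interval -0.97 to -0.45, limma, adjusted p = 0.0193). On the linear scale this interval runs from 1.37-fold to 1.96-fold lower. GID1C was among 31 genes called lower, and 21 of these had a larger difference than GID1C. Its brightness within the array also moved, since 66.7% to 72.8% of probe sets lay below it on mock arrays and 57.4% to 59.1% on NPA arrays. The call of GID1C was lost without mock 1 (adjusted p = 0.0509), mock 2 (adjusted p = 0.0808), NPA 1 (adjusted p = 0.0749) or NPA 2 (adjusted p = 0.0787), in limma fits on 5 arrays. Its difference stayed between -0.80 and -0.63 in the 6 fits that each left out 1 array.

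GID1B had values of 6.54, 6.52 and 6.62 on the mock arrays and of 6.18, 6.10 and 5.90 on the NPA arrays. All mock values lay within 0.10 of each other, and the gap to the highest NPA value was 0.35. The means were 6.56 ± 0.05 and 6.06 ± 0.14 (SD, n = 3 each). NPA minus mock was -0.50 ± 0.10 (SE, 95% interval -0.74 to -0.26, limma, adjusted p = 0.0505, unadjusted p = 0.00154). The adjusted p lay just above the threshold, so GID1B was not called with the values as deposited. It was called when the arrays were quantile-normalized once more (difference -0.61, adjusted p = 0.0303), when each array was centred on its median (difference -0.61, adjusted p = 0.0371) and without probe sets whose names end in _s_at or _x_at (adjusted p = 0.0485). In the 6 fits that each left out 1 array GID1B was not called (limma, adjusted p from 0.0814 to 0.150). Its difference in these fits was -0.56 to -0.42. Within the arrays GID1B lay near the middle, with 53.2% to 54.3% of probe sets below it in mock and 45.0% to 47.8% in NPA.

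GID1A was measured at 8.47, 8.75 and 8.86 on mock arrays 1, 2 and 3, and at 8.54, 8.16 and 8.40 on NPA arrays 1, 2 and 3. The groups overlapped, because mock 1, the lowest mock array, lay below NPA 1, the highest NPA array. The means were 8.69 ± 0.20 and 8.37 ± 0.19 (SD, n = 3 each). NPA minus mock was -0.33 ± 0.14 (SE, 95% interval -0.67 to 0.0078, limma, adjusted p = 0.317, unadjusted p = 0.0543). The interval thus reaches from 1.59-fold lower to just above no difference. With single arrays left out the difference was -0.44 to -0.23, and moved most without mock 1 (-0.44) and NPA 2 (-0.23). At an unadjusted p under 0.05, 2 of the 3 receptors were lower, against 4.91% of all genes, which is given as a description.

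**Figure D2:**
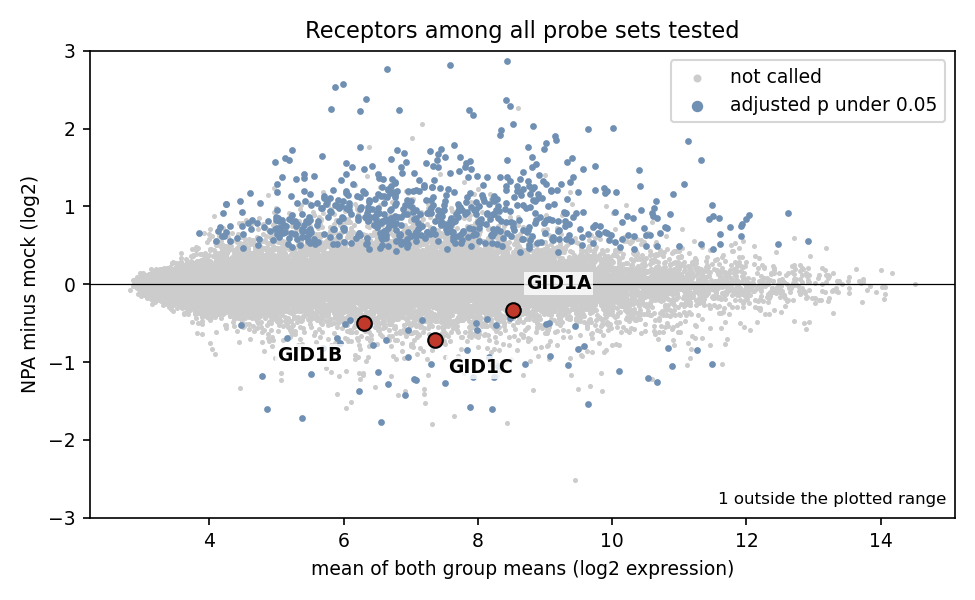
Difference of NPA minus mock (y axis, log2) against mean expression (x axis, log2) for the probe sets tested, with called ones in blue and the receptors in red. The receptors lie below zero, at -0.33, -0.50 and -0.71, and the plot leaves out 1 probe set beyond its range.

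Mock 1 held the highest GID1C value and the lowest GID1A value of its group, so the receptors did not move together among the mock arrays. Within NPA, array 3 had the lowest GID1B value and the highest GID1C value. Without mock 1 and NPA 3, the arrays that stood apart, the differences were -0.66 for GID1C (limma, adjusted p = 0.0724), -0.43 for GID1B (adjusted p = 0.157) and -0.46 for GID1A (adjusted p = 0.255). This setting was chosen after the data were seen, and 0 of the 3 receptors were called in it. The 3 differences stayed negative in every setting tried, though several of these settings leave the difference itself unchanged.

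**Figure D3:**
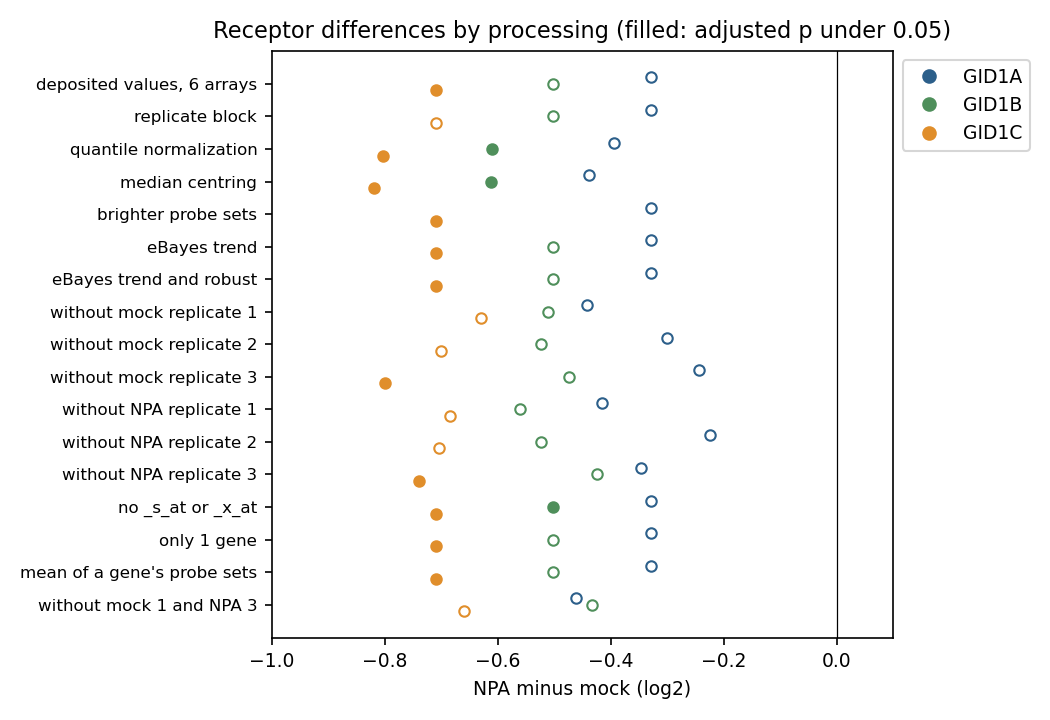
Difference of NPA minus mock (x axis, log2) of each receptor under each way of processing (y axis), with filled points where the adjusted p of limma was under 0.05. Points of GID1C run from -0.82 to -0.63, those of GID1B from -0.61 to -0.42 and those of GID1A from -0.46 to -0.23.

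Whether the receptors differed from each other in their response was asked from the log2 difference between 2 receptors on the same array. Such a difference cancels any scaling of the array. GID1C minus GID1A was -0.58, -1.01 and -1.32 on the mock arrays and -1.57, -1.15 and -1.33 on the NPA arrays, and the groups overlapped. Its mean moved by -0.38 from mock to NPA (two-sided exact permutation p = 0.2, adjusted over 3 pairs 0.3, 90% interval -0.99 to 0.17). GID1C minus GID1B moved by -0.21 (exact permutation p = 0.2, adjusted 0.3, 90% interval -0.55 to 0.25). GID1B minus GID1A moved by -0.17 (exact permutation p = 0.4, adjusted 0.4, 90% interval -0.58 to 0.19). With 3 arrays against 3 this exact permutation test cannot go below p = 0.1, and the intervals hold the shifts it does not reject at that level. A larger fall of GID1C than of the other receptors was therefore not detectable, though the intervals reach to a difference of -0.99. Mock 1 weighed on all 3 values: without it GID1C minus GID1A moved by -0.19, GID1C minus GID1B by -0.12 and GID1B minus GID1A by -0.069. With any 1 array left out the ranges were -0.56 to -0.19, -0.33 to -0.12 and -0.30 to -0.069, all below 0.

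The share of each receptor was taken as its part of the summed linear signal of the 3 probe sets on an array. It is a share of signal, not of transcripts, since probe sets differ in how brightly they report a transcript, and its change between groups is what can be compared. GID1C had 34.6%, 29.1% and 24.9% of the signal on the mock arrays and 22.0%, 26.6% and 25.3% on the NPA arrays. Mock 1 and mock 2 lay above all NPA arrays, while mock 3 lay among them. The means were 29.5% ± 4.87 and 24.6% ± 2.38 (SD, n = 3 each), a change of -4.87 percentage points (two-sided exact permutation p = 0.3, adjusted over 3 shares 0.45). The change was -2.34 points without mock 1 and reached -7.19 without mock 3.

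GID1A had 51.8%, 58.5% and 62.0% on the mock arrays and 65.3%, 59.2% and 63.5% on the NPA arrays. Its mean share went from 57.4% ± 5.21 to 62.7% ± 3.15 (SD, n = 3 each, exact permutation p = 0.2, adjusted 0.45), with mock 3 inside the range of the NPA arrays. The change of the mean was 5.23 points, and 2.40 points without mock 1. GID1B held 12.5% to 13.7% in mock and 11.2% to 14.2% in NPA, a change of -0.35 percentage points (exact permutation p = 0.8). The groups overlapped in all 3 shares, and this exact permutation test cannot go below p = 0.1. The 90% intervals were -2.87 to 13.5 points for GID1A, -2.42 to 1.76 for GID1B and -12.6 to 1.74 for GID1C. The summed signal itself was 683, 737 and 751 in mock and 569, 482 and 533 in NPA, so the NPA mean was 72.9% of the mock mean and the groups did not overlap. It is given as a description, and the GID1A probe set holds most of it.

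**Figure D4:**
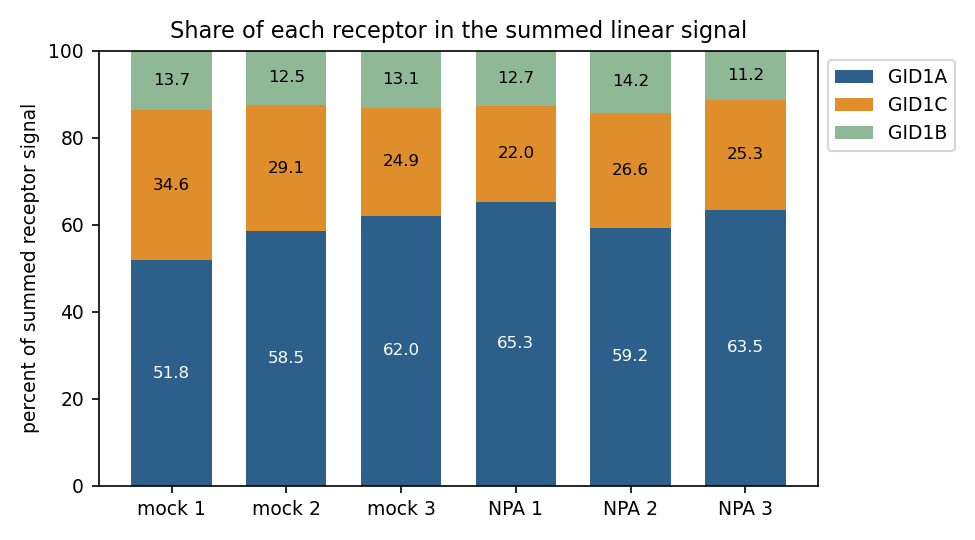
Percent of the summed linear signal of the 3 receptor probe sets (y axis) held by each receptor on each array (x axis), with the value printed in each bar. GID1A holds 51.8% to 65.3%, and mock 1 stands out with the lowest share of GID1A and the highest of GID1C.

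The pieces were whole stem, so fewer cells of a type and less RNA per cell cannot be told apart. Markers of wood cells moved with the treatment in the same arrays. All marker lists were chosen with earlier results of these data known, so their counts are given as a description. Of 11 listed xylem and fibre genes 4 were measured (GUT2, IRX15, IRX15-L and HCT), and all 4 rose, by 0.75 to 1.40 on the log2 scale, where 2.31% of all genes were called higher. Their summed signal was 3589 to 4095 in mock and 6828 to 7606 in NPA. Of 6 genes listed for the cambium 3 were measured, and CLE44 and MOL1 rose while CLE41 did not pass the test. CLE41 and CLE44 encode the peptide signal TDIF and are not markers of cambium cells. Among the 6 fits on 5 arrays, MOL1 was called in the one that left out mock 3 and in no other (limma, adjusted p up to 0.0773), and it was not called with median centring (adjusted p = 0.0515). IRX15 was not called when mock 2 or mock 3 was left out (adjusted p up to 0.0576). The 3 genes listed for the cambium had a summed signal of 789 to 881 in mock and 1470 to 1732 in NPA. This sum includes both peptide genes. Of 7 listed phloem genes 2 were measured, with OPS called higher and SWEET11 at a difference of -0.95 (limma, adjusted p = 0.0909). OPS was not called when mock 1, mock 2 or NPA 1 was left out (adjusted p up to 0.0765), and SWEET11 gained one without NPA 3 (adjusted p = 0.0460). The summed signal of both was 195 to 232 in mock and 178 to 206 in NPA. The 3 measured green cortex genes of 7 listed had differences of 0.08 to 0.41 with no call and a summed signal of 5094 to 6153 in mock and 5378 to 7065 in NPA. The epidermis gene CR4 (also called ACR4), 1 of 5 listed, differed by -0.02. Its mock mean of 4.17 lay at the lower quartile of the arrays, so it says little about the epidermis. The part of such shifts in the receptor differences was not tested.

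Other genes of the pathway did not pass the test. Besides the receptors, 77 genes were listed by role, and 17 were measured. Of these 17, 0 were called higher and 0 lower by limma, while at an unadjusted p under 0.05 there were 2 higher and 1 lower, against 9.88% higher and 4.91% lower among all genes. Their median difference was 0.04, beside 0.01 over all genes. The groups did not overlap in 2 genes that were lower in NPA and in 1 that was higher, against 7.65% and 13.1% of all genes. The genes listed for gibberellin synthesis (14) and inactivation (11) and the 5 DELLA genes were not analysed here, since no probe set was named for them.

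Of 6 genes listed for the turnover and modification of DELLA proteins, 4 were measured and 0 were called. SLY1, the F-box gene that acts next after the receptors, was measured at 8.87, 8.77 and 8.71 in mock and at 8.61, 8.64 and 8.48 in NPA. Each NPA value lay below each mock value, but the difference of -0.20 ± 0.10 (SE) did not pass the test (limma, adjusted p = 0.350). SLY2, a related F-box gene also called SNEEZY, differed by -0.13 (adjusted p = 0.665). SPY and SEC encode enzymes that attach sugars to DELLA proteins, and differed by 0.0023 (adjusted p = 0.994) and 0.26 (adjusted p = 0.407). The single measured gene of 16 listed partners of DELLA proteins, the zinc finger gene JKD, differed by 0.18 (adjusted p = 0.491).

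The 3 listed transporter genes were all measured, and none was called by limma. SWEET14, a sugar carrier that can also move gibberellin, was at 4.28, 4.23 and 4.20 in mock and at 3.99, 3.78 and 4.11 in NPA. These values do not overlap, and the difference was -0.27 (adjusted p = 0.273), at a level near the lower quartile of the arrays. SWEET13 differed by -0.16 (adjusted p = 0.766) and AT1G68570, annotated as NPF3.1, by -0.03 (adjusted p = 0.975). SWEET13 was dim, with means of 4.06 in mock and 3.90 in NPA, below the lower quartile of every array.

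Among 11 genes listed as early targets of DELLA proteins, 3 were measured and none passed the test by limma. AT2G31730 was at 6.18, 6.16 and 6.07 in mock and at 6.54, 6.34 and 7.14 in NPA, with NPA 3 far above the other arrays of its group. All NPA values lay above all mock values, with a difference of 0.53 (adjusted p = 0.235), which was 0.30 without NPA 3. XERICO, a RING finger gene, differed by 0.08 (adjusted p = 0.771), with values of 9.97 to 10.28 in mock and 10.19 to 10.26 in NPA. AT5G50915 differed by 0.04 (adjusted p = 0.888) near the lower end of the scale, with a mock mean of 3.77.

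The GASA family holds small cysteine-rich proteins, several of which are known to be raised by gibberellin. Of 14 listed members 6 were measured, 4 with a higher and 2 with a lower mean in NPA, and none was called by limma. The family's median difference was 0.21, beside 0.01 over all genes. This median says little about the family, since most of its measured members were dim. The mock means of AT5G59845, AT2G18420 and the measured members not named below lay under the lower quartile of every array. AT5G59845 had the lowest p, with 4.35, 3.91 and 4.18 in mock and 4.32, 4.55 and 4.88 in NPA, a difference of 0.43 (adjusted p = 0.268). Its groups overlapped through mock 1 and NPA 1. AT1G22690, AT2G14900 and AT2G18420 differed by 0.36 (adjusted p = 0.528), 0.32 (adjusted p = 0.546) and -0.12 (adjusted p = 0.710). Single arrays moved these values: without NPA 3 that of AT2G14900 was 0.088 and that of AT5G59845 was 0.29.

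**Figure D5:**
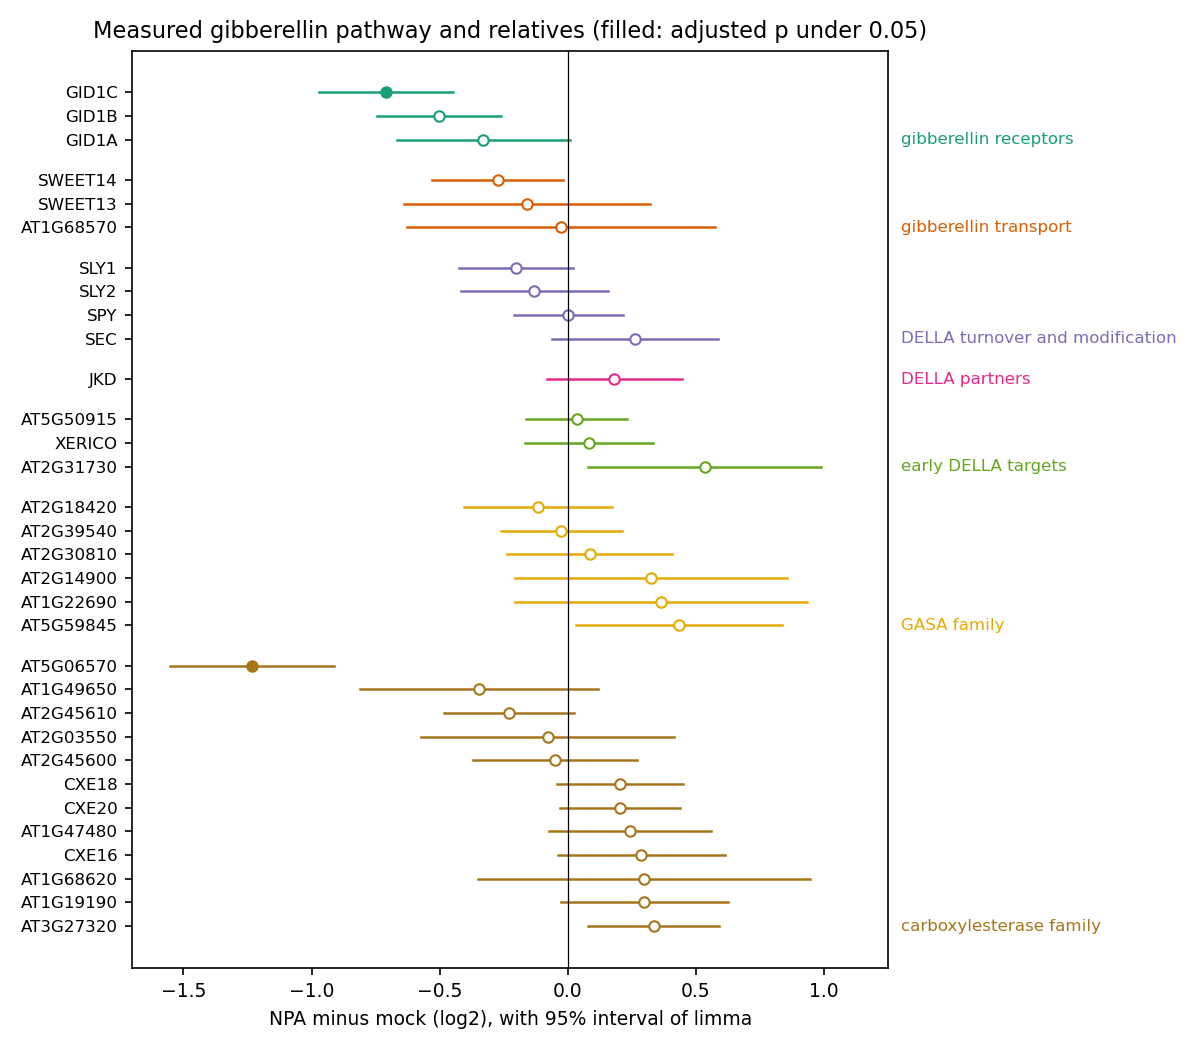
Difference of NPA minus mock (x axis, log2) with the 95% interval of limma for each measured gene of the gibberellin lists and of the carboxylesterase family (y axis, grouped by list), with filled points where the adjusted p was under 0.05. GID1C at -0.71 and AT5G06570 at -1.23 are the filled points.

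GID1 proteins share the fold of plant carboxylesterases, enzymes that split esters, but do not work as esterases themselves. Of 17 genes listed for this family besides the receptors, 12 were measured, with 1 called lower, 0 called higher and a median difference of 0.20, against 0.232% lower and 2.31% higher among all genes. The gene called lower was AT5G06570, with 7.73, 7.48 and 7.88 in mock and 6.60, 6.52 and 6.28 in NPA, a difference of -1.23 ± 0.14 (SE, adjusted p = 0.00553). Its difference was larger than that of GID1C, and its groups lay further apart. AT3G27320 differed by 0.33 (adjusted p = 0.186), AT1G19190 by 0.30 (adjusted p = 0.350) and AT2G45610 by -0.23 (adjusted p = 0.356), without passing the test. AT2G45610 was dim, with means of 3.86 in mock and 3.63 in NPA, below the lower quartile of every array. AT5G06570 was called in each fit that left out 1 array. Of the 12 means, 7 were higher and 5 lower in NPA, beside lower means of all 3 receptors.

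Likeness between genes was measured as the root mean square distance between their log2 profiles over the 6 arrays, after each profile was centred on its own mean. Among 13354 other genes, GID1B stood at place 100 from GID1C (distance 0.20) and GID1A at place 2018 (distance 0.31), where the median distance from GID1C was 0.39. From GID1A, GID1B stood at place 1085 (distance 0.19) and GID1C at place 8692, further than the median distance of 0.28. GID1C and GID1A thus had less similar profiles than either had with GID1B. Seen from GID1B, GID1A stood at place 525 and GID1C at place 684.

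The gene with the profile most like that of GID1C was AT2G27180 (distance 0.08), with 7.67, 7.48 and 7.28 in mock and 6.86, 6.87 and 7.02 in NPA. Like GID1C it was highest on mock 1, and its difference of -0.56 did not pass the test (limma, adjusted p = 0.0616). The nearest genes of each receptor were picked by these same values. Their shared direction, size and array order therefore follow from the choice and are given as a description. AT1G59950, AT5G35370, AT2G15960 and AT5G41920 followed at distances of 0.10 to 0.12 and differences of -0.56 to -0.51. None of these 4 was called (adjusted p from 0.0501 to 0.0773). AT1G59950 was dim, with means of 4.14 in mock and 3.63 in NPA, below the lower quartile of every array. AT5G41920, annotated as SCL23, a scarecrow-like gene, had 7.05, 6.74 and 6.77 in mock and 6.33, 6.29 and 6.39 in NPA.

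For GID1B the nearest gene was AT4G26060 (distance 0.05), at 9.25, 9.16 and 9.38 in mock and 8.85, 8.75 and 8.66 in NPA. It fell by 0.51 on the log2 scale (limma, adjusted p = 0.0457), a call at nearly the same size as the uncalled difference of GID1B. AT3G15810, the third in order, also fell, by 0.53 (adjusted p = 0.0257). Both lost their call without any 1 of the 6 arrays (limma, adjusted p from 0.0524 to 0.139). AT5G05990, AT2G24860 and AT2G42300 differed by -0.54, -0.43 and -0.43 without passing the test. For GID1A the nearest were AT1G15730 (distance 0.05), AT1G76120, AT2G20450, SWI3A and AT1G53430, with differences of -0.36 to -0.24 and 0 calls (limma, adjusted p from 0.237 to 0.421). SWI3A encodes a subunit of a chromatin-remodelling complex, and had 6.06, 6.29 and 6.47 in mock and 6.18, 5.84 and 5.90 in NPA. As in GID1A, by whose values it was picked, its mock 1 value lay below its NPA 1 value.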

How the data were processed

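The deposited values are log2 expression values. Per the submitters' processing notes the authors used RMA and limma (no versions); other steps were not given. RMA corrects background, equalizes array distributions and combines each set's probes, with no detection call. Of 22810 probe sets the 64 controls were left out. Groups came from the sample titles. NPA minus mock was tested over all 22746 remaining probe sets by linear models (limma 3.58.1, lmFit and eBayes; R 4.3.3), Benjamini-Hochberg adjustment and calls at an adjusted p under 0.05. The SE is limma's moderated one. The limma step was tested on simulated data.

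Genes were named through the platform table and TAIR10.1 gene names, which gave 13513 probe sets with exactly 1 gene, 503 with several and 8730 with none listed. A gene with several probe sets was read from the brightest. The receptors and all lists were chosen with earlier results of these data known. Named genes were the receptors, up to 4 members of lowest p per gibberellin or carboxylesterase list, the marker genes, and the 5 nearest profiles of each receptor. Lists are described by counts and medians, without a test. Precision is limited by the number of arrays.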

Additional observations from a re-analysis of the deposited data

How the results depend on the processing

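The 3 receptor differences kept their negative sign in every setting, which was partly fixed in advance. A replicate block, other variance options of limma and other choices of probe sets leave the difference itself unchanged. The groups of GID1B and GID1C do not overlap, so leaving out arrays cannot turn their sign. GID1A was not called in any of its 16 settings (limma, adjusted p 0.134 to 0.622). GID1B was called in 3 of 15, after quantile normalization (-0.61), median centring (-0.61) and without probe sets ending in _s_at or _x_at (-0.50). It was not tested among the brighter probe sets, which leave it out. GID1C was called in 10 of 16. It was not called with the replicate number as a block (-0.71, adjusted p = 0.0634), without mock 1 and NPA 3 together (-0.66), or in 4 of 6 fits without single arrays, where it ranged from -0.80 to -0.63. Fewer arrays alone can cost a call, and the cause was not tested. Whether the numbers pair the arrays is not known. Deviations from the group means of arrays with the same replicate number correlated at -0.26, 0.05 and 0.04. Those with different numbers ran from -0.34 (mock 2 with NPA 3) to 0.36 (mock 2 with NPA 1). With 3 arrays per group such correlations cannot show how the arrays were handled.

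Of all probe sets 683 were called. There were 449 with the replicate block, 397 without mock 1 and NPA 3, and 304 to 446 with single arrays left out. Among probe sets with 1 gene there were 338, and 335 by gene means, where fewer were tested. There were 1208 at an adjusted p under 0.1 and 225 under 0.01. With median centring 97 were lower and 391 higher, so the lower share was 19.9% in place of 8.05%, and 15.5% with quantile normalization.

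The change of the GID1B share turned to 0.39 points without NPA 3 and lay between -1.10 and 0.39 with single arrays left out. Among the genes named, small uncalled differences turned sign. SPY went to -0.068 with quantile normalization, -0.11 with median centring and -0.033 without mock 1 and NPA 3, and ranged from -0.044 to 0.039 with single arrays left out. XERICO went to -0.027 with median centring, with single-array fits from -0.0059 to 0.15, and AT5G50915 to -0.074 with centring. AT1G68570 went to 0.17 without mock 1 and NPA 3, and SLY2 to 0.022. Single-array fits ran from -0.25 to 0.25 for AT1G68570 and from -0.36 to 0.013 for SWEET13. Among the marker genes, median centring gave -0.026 for PSAN, -0.017 for PSAE-1, -0.020 for EXPA7 and -0.074 for the flower and pollen gene SPL. Single-array fits ran from -0.061 to 0.22 for PSAN, -0.0075 to 0.23 for PSAE-1, -0.14 to 0.090 for CR4 and -0.014 to 0.062 for SPL. Over all settings run for the named gibberellin, carboxylesterase, marker and nearest-profile genes, 711 values kept direction and side of the threshold, 30 lost a call, 15 gained one and 23 turned sign. No exact permutation test of shares or receptor pairs could pass 0.05 in any setting.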
